A study of Mus musculus with 19 samples.

Results

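The RNA pulled down with tagged ribosomes from mouse cortical astrocytes in metestrus was described from 8 libraries. These are all the libraries labelled metestrus among the 19 of the study. They were chosen by that label alone, and no other stage of the cycle is compared here. The mice were females of mixed B6;FVB background with the transgene Tg(Aldh1l1-EGFP/Rpl10a)JD130Htz/J (line label Ald1l1-L10a-eGFP), taken at 09:00, with no other allele, agent or age given in the sources used here. A transgene under Aldh1l1 regulatory sequence fuses EGFP to the ribosomal protein L10a, and tagged ribosomes were pulled down on magnetic beads before poly(A) RNA was sequenced (translating ribosome affinity purification). The tissue label is brain and the series title names cortical astrocytes. Libraries 1 and 2 belong to batch 2, library 3 to batch 3 and libraries 4 to 8 to batch 4, where the numbers are names in deposition order. The labels do not say that each library came from its own mouse, so the spread given below is that between libraries and may be technical. A library of the unpurified tissue was not used here, so how far the pull-down enriched any gene was not measured. Whether RNA of other cells came down with the beads was not tested.

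Astrocytes clear glutamate, GABA and potassium from the space around synapses, pass water and ions to the blood vessels through their endfeet, store glycogen, make serine, glutamine and cholesterol for neurons, and secrete lipoproteins and matrix. The tag is made in cells that use the regulatory sequence of Aldh1l1, an enzyme gene of folate metabolism that marks most astrocytes. Metestrus is the stage of the rodent cycle that follows ovulation and estrus, when circulating estradiol is low.

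Values in the deposited table are logarithms to base 2, called log2 levels below. Because a long transcript gives more reads than a short one, genes were compared with each other only after the log2 of the exon length in kilobases was subtracted (log2 level per kb). Exon length is the union of a gene's annotated exons in GENCODE M21. Of 21749 genes, 18338 (84.3%) had a log2 level of at least 3.322, which is 10 before the logarithm, in at least 3 of the 8 libraries, and 16809 of these had an exon length. Over these genes the median was 8.19 for the log2 level and 6.30 per kb, and the highest 10% began at 9.71 per kb. Powers of 2 of the values summed to 2.12e+07 to 2.53e+07 per library, and the read depth is unknown. Genes were grouped in 36 lists of cell type markers and functions, in which 513 symbols occur, 497 were matched to a gene of the file and 484 passed the filter. No 2 libraries held identical values. Library 3 held the highest mean of 7 of the 36 lists and library 2 the lowest of 7. Libraries 4, 5, 6 and 8, described below, also held the highest or lowest mean of many lists. Leaving out any 1 library moved the mean of each of the 13 cell type lists by less than its SD over libraries, as it must with 8 values.

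The most abundant product per kb was Cst3 (ENSMUSG00000027447.7), which encodes cystatin C, a secreted inhibitor of cysteine proteases. Its lowest, median and highest log2 levels over the 8 libraries were 17.12, 17.43 and 17.78, and its mean was 17.09 per kb. Apoe, the main lipoprotein of astrocytes, followed among secreted factors with log2 levels of 16.99, 17.36 and 17.87 and 16.28 per kb. Cst3 stood above Apoe per kb in 8 of 8 libraries, by 1.75-fold on average. The 12 genes highest per kb were Cst3, Mt1, Apoe, Mt3, Selenow, Cox8a, Gstm1, Dbi, Aldoc, S100a1, Mt2 and Ckb. They cover protease inhibition, metal binding (Mt1, Mt2, Mt3), lipid carriage (Apoe), selenium-based redox defence (Selenow), the respiratory chain (Cox8a), glutathione conjugation (Gstm1), acyl-CoA and benzodiazepine-site binding (Dbi), glycolysis (Aldoc), calcium binding (S100a1) and creatine phosphate (Ckb). The order among them depends on the length used. Per kb of the longest transcript Mt3 ranked 2, Dbi 4 and Mt1 5, and Cst3 and Apoe kept ranks 1 and 3.

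As deposited, with no correction for length, the highest entry was Rn18s-rs5, an 18S ribosomal RNA gene, at a mean log2 level of 18.56. It held 1.74% of the summed linear value on average, from 0.898% in library 8 to 2.47% in library 4. Lars2, a mitochondrial leucyl-tRNA synthetase gene, had a log2 level of 15.87 ± 0.50 (SD, n = 8) and was likewise highest in library 4 and lowest in library 8. Cst3, Apoe, Aldoc and Mt1 came next after the ribosomal RNA in the deposited order. The 100 genes of highest log2 level held 19.9% of the summed linear value.

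Nuclear genes of the respiratory chain and of ATP synthase (symbols starting with Atp5), together called nuclear respiratory genes here, were frequent near the top. Of the 100 genes highest per kb, 26 were such genes, 3 were metallothioneins, 2 were cytosolic ribosomal protein genes and 0 were mitochondrially encoded. The 98 nuclear respiratory genes held 4.42% ± 0.21 of the summed linear value (SD, n = 8), and 83 of the 96 past the filter with a length lay in the highest 10% per kb. Cox8a stood at 15.81 per kb, Cox6a1 at 15.10 and Uqcr11 at 14.97. The 84 cytosolic ribosomal protein genes held 1.95% ± 0.23 and 75 of them lay in the highest 10% per kb, with a median of 11.51 per kb against 12.47 for the respiratory genes. Rpl10a, which encodes the protein that was tagged, had log2 levels of 12.12, 12.38 and 12.60, and the endogenous gene and the transgene cannot be told apart in this value. The 15 mitochondrially encoded genes together held 0.0538%, with a range over libraries from 0.0318% in library 5 to 0.0812% in library 4. Their median was 9.56 per kb, with 7 of 14 in the highest 10%, and their median SD of 0.50 (log2) exceeded the 0.18 of the nuclear respiratory genes.

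Metallothioneins, small cysteine-rich proteins that bind zinc and copper, held 0.965% of the summed linear value through only 3 genes. Mt1 had log2 levels of 16.63, 16.87 and 17.32 (lowest, median, highest), Mt2 14.10, 14.52 and 15.29, and Mt3, the brain form, 15.94, 16.14 and 16.29. Mt1 stood above Mt2 per kb in 8 of 8 libraries, by 2.38-fold. Mt1 and Mt2 placed the 8 libraries in 1 order, from library 4 at the top through 7, 2, 3, 1, 8 and 6 to library 5, whereas Mt3 was highest in library 8 and lowest in library 6. The sequence before each gene's start was searched for 1 motif, and whether matches to it bear on the order of the libraries was not tested. The 250 bases upstream of the annotated start (RefSeq, GRCm38.p6, forward strand) lie at chr8:94178839-94179088 for Mt1, chr8:94172368-94172617 for Mt2 and chr8:94152357-94152606 for Mt3, with capitals marking TGCACNC or TGCGCNC on either strand, the core of the metal response element bound by the zinc sensor MTF1.
Mt1: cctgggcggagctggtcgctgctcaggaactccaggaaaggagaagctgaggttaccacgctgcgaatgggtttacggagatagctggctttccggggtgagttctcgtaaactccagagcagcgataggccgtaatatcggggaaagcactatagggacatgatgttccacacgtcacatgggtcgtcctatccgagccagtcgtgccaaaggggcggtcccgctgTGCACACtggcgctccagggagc
Mt2: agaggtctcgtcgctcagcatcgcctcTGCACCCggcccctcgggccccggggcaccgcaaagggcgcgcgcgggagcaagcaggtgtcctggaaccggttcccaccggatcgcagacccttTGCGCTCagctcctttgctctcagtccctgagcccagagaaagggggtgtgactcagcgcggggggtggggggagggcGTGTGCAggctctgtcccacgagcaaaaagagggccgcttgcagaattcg
Mt3: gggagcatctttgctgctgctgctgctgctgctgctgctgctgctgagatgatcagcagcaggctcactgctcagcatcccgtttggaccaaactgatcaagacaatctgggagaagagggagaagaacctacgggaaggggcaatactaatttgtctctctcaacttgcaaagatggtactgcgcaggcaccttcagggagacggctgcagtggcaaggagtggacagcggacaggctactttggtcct
The Mt1 window held 1 match, the Mt2 window 3 separate matches and the Mt3 window 0. Each window ends at 1 annotated start, and sites beyond it or further upstream were not searched. These counts are therefore not totals for a promoter. Of 32851 windows of the same length before annotated starts, 21.4% held at least 1 match and 0.77% at least 3. A match is a run of letters and not a measured binding site, and nothing in these libraries measured binding.

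**Figure D1:**
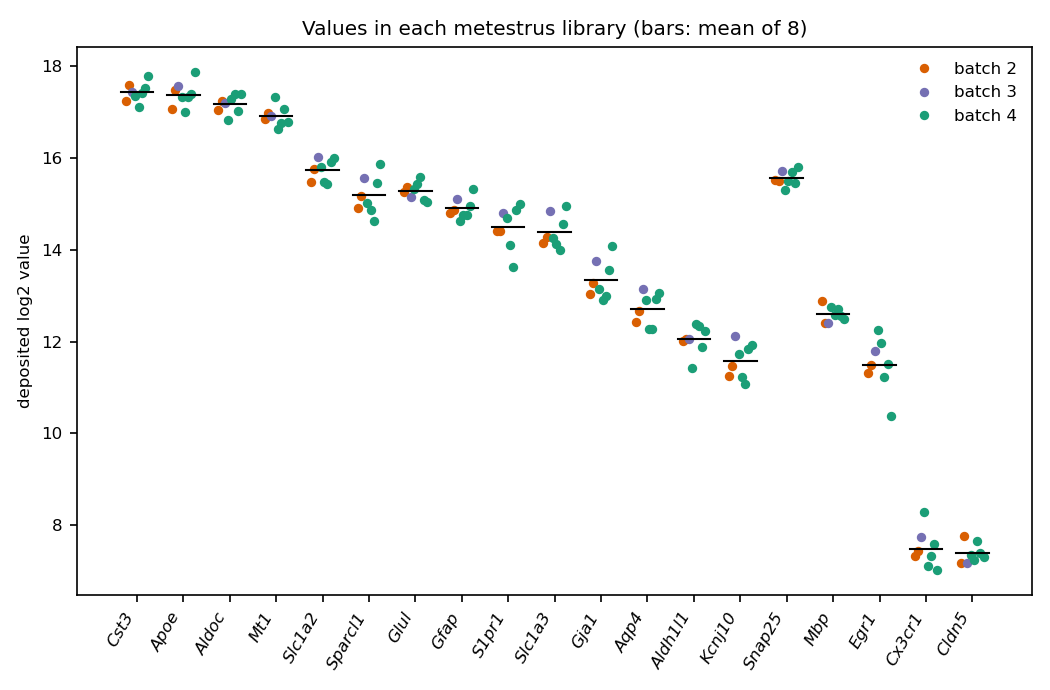
Deposited log2 value of 19 genes (x axis) in each metestrus library, with points coloured by batch and black bars for the mean of 8. Cst3, Apoe and Aldoc lie at or above 16.83 in every library, and Egr1 has its lowest point, 10.38, in library 8.

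The label astrocyte was checked against 20 markers, and all 20 were past the filter and above the median gene per kb. Of these, 19 lay in the highest 10% per kb, the exception being the bicarbonate transporter Slc4a4 at 8.70 per kb. Aldh1l1, whose regulatory sequence drives the tag, had log2 levels of 11.42, 12.06 and 12.38 and 9.87 per kb. It was lowest in library 4 and highest in library 5. The markers Slc1a2, Slc1a3, Aqp4 and Gja1 are described with their functions below. Aldoc stood at 15.47 per kb, the calcium-binding S100b at 14.30 and glutamine synthetase (Glul) at 13.55. The intermediate filament gene Gfap had log2 levels of 14.63, 14.82 and 15.33 and 12.82 per kb, 20.3 times its partner Vim.

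Other cell types' markers were also read in these pull-downs. All 11 general neuron markers stood above the median gene per kb and 7 lay in the highest 10%, with Snap25, a synaptic vesicle fusion protein, at log2 levels of 15.31, 15.51 and 15.80. Per kb Snap25 stood above Slc1a2 in 8 of 8 libraries, by 1.71-fold (4.85-fold with the longest transcript), and the excitatory neuron kinase gene Camk2a stood above Aldh1l1 in 8 of 8, by 1.79-fold. Nrgn, a calmodulin-binding protein of excitatory neurons, reached 13.35 per kb, and the interneuron peptides Sst and Npy 12.07 and 11.06. The medians per kb were 10.10 for general neurons, 8.61 for excitatory and 8.22 for inhibitory neurons, against 11.46 for astrocytes. In bulk libraries, fewer cells of a type and less RNA per cell cannot be told apart, and whether these values came from neuronal RNA was not tested.

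Oligodendrocyte markers had a median of 7.45 per kb, with Cnp at 11.07 and the myelin gene Mbp at 9.52. Precursor markers were lower, with a median of 4.29 and only Olig2, a lineage transcription factor, above the median gene (8.56 per kb). Microglia and macrophage markers had a median of 6.57 and 0 of 12 in the highest 10%, with the complement gene C1qb highest at 8.95. Endothelial, mural and fibroblast markers had medians of 2.77, 4.05 and 3.58 per kb, with 0 members in the highest 10%. The endothelial junction gene Pecam1 was at 2.18 per kb and Vwf, a clotting factor of endothelium, at -0.14. The blood list had a median of 10.395 per kb, above the 10.10 of general neurons, with 3 of 6 members in the highest 10%. Hemoglobin genes of red blood cells were among the higher markers, with Hbb-bs at 11.85 and Hba-a1 at 11.66 per kb. Hba-a1 and Hba-a2 are near-identical copies, as are Hbb-bs and Hbb-bt, so their separate values are uncertain. The white blood cell gene Ptprc was at -1.89 per kb.

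**Figure D2:**
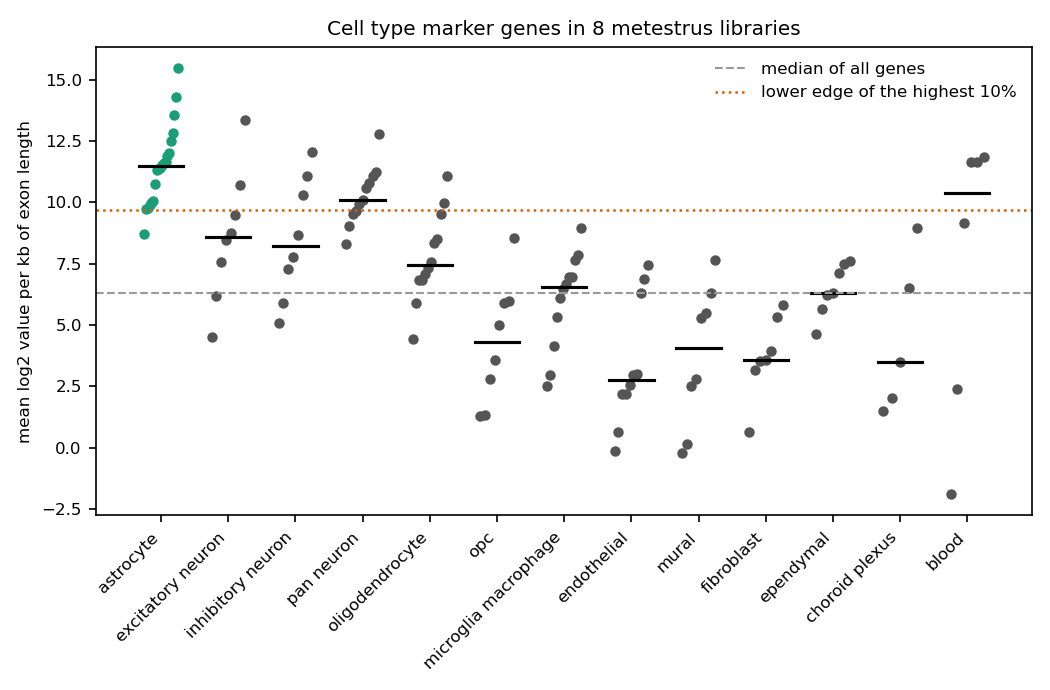
Mean log2 value per kb of exon length (y axis) for markers of 13 cell types that passed the filter, 1 point per gene, with black bars for the list median, a dashed line for the median of all genes (6.30) and a dotted line for the lower edge of the highest 10% (9.71). The astrocyte list has the highest median, followed by the blood list (10.395) and the general neuron list (10.10), both near the dotted line. The endothelial list lies below the median of all genes for 8 of its 10 members.

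The region label was checked with genes that pattern the forebrain. All 12 were past the filter and 10 stood above the median gene per kb, including the forebrain transcription factors Lhx2 (11.08) and Emx2 (8.68). Of 18 genes of midbrain, hindbrain and other regions, 8 were matched to a gene of the file and 5 passed the filter. The highest of them was Nkx2-2 at 6.89 per kb.

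Transport of glutamate led the amino acid carriers. Slc1a2, the main glutamate transporter of forebrain astrocytes, had log2 levels of 15.43, 15.78 and 16.02 and 12.02 per kb. Slc1a3, the other astrocyte glutamate transporter, had 13.99, 14.27 and 14.96 and 11.30 per kb. Per kb of exon length Slc1a2 stood above Slc1a3 in 8 of 8 libraries (1.65-fold), but per kb of the longest transcript in 1 of 8 (0.909-fold), so their order is not settled by these values. The GABA transporter Slc6a11 stood at 9.24 per kb. Slc7a10, which carries serine and glycine, stood at 9.79, and the glutamine carrier Slc38a3 at 9.04. The neuronal glutamate transporter Slc1a1 was at 5.06 and Slc1a5 at 1.51. Of 18 amino acid transporters past the filter, 4 lay in the highest 10% per kb.

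Enzymes of glutamate metabolism stood among the higher genes. Glul had log2 levels of 15.04, 15.29 and 15.58 and 13.55 per kb. Slc25a18, a mitochondrial glutamate carrier, stood at 12.79 per kb and Glud1, which oxidises glutamate, at 11.60. Maob, which breaks down monoamines, stood at 9.76. All 10 genes of this list were above the median gene, and 7 lay in the highest 10% per kb.

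The sodium pump beta subunits Atp1b1 and Atp1b2 stood at 11.56 and 10.74 per kb, and Atp1b1 was higher in 8 of 8. The calcium pump Atp2b1 was at 8.44 and the sodium and calcium exchanger Slc8a1 at 5.78. Carriers of other nutrients were lower, with the citrate carrier Slc25a1 (10.21) and the fatty acid carrier Slc27a1 (9.72) the highest per kb. The zinc transporter Slc39a12 was at 9.53, the glucose transporter Slc2a1 at 8.08 and the thyroid hormone transporter Slco1c1 at 7.67. The lactate carrier Slc16a1 (6.72) exceeded Slc16a7 (2.99) in 8 of 8 libraries.

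The leak channel Kcnk1 had log2 levels of 12.06, 12.32 and 12.86 and 11.23 per kb, and stood 4.25 times above Kcnj10, the inward rectifier that buffers potassium, in 8 of 8 libraries. Kcnj10 itself had 11.09, 11.60 and 12.13 and 9.15 per kb, and stood above its partner Kcnj16 (8.42) in 8 of 8. Kcnj16 and the mechanosensitive leak channel Kcnk2 (8.12) were not separated beyond their spread, since Kcnj16 was higher in 6 of 8 libraries with exon length and in 5 of 8 with the longest transcript. The neuronal channel Kcna2 followed at 7.92.

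Among water and gap junction channels, the connexin gene Gjb6 stood at 11.62 per kb and the connexin gene Gja1 at 9.98, and Gjb6 was higher in 8 of 8 libraries with exon length and in 7 of 8 with the longest transcript. Gja1 had log2 levels of 12.90, 13.21 and 14.07. The water channel Aqp4 had 12.27, 12.78 and 13.14 and 10.07 per kb, above Gja1 in 7 of 8 libraries with exon length but in 0 of 8 with the longest transcript. Ttyh1, an anion channel family member, was the highest of this list at 11.94, and Mlc1 and Hepacam, which form a complex at astrocyte junctions, stood at 11.41 and 11.51. The volume-regulated anion channel subunit Lrrc8a was at 8.21. The cation channel gene Trpv4 did not pass the filter, with log2 levels of -0.38, 2.50 and 3.62.

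Metabotropic receptors had a median of 6.36 per kb, near that of all genes, with 3 members far above it. Gpr37l1, a receptor of glial cells, had log2 levels of 13.94, 14.12 and 14.74 and 13.02 per kb. The sphingosine phosphate receptor S1pr1 had 13.62, 14.55 and 14.997 and 12.88 per kb, and the neurotensin receptor Ntsr2 13.90, 14.16 and 14.49 and 12.51 per kb. S1pr1 was lowest in library 6 and highest in library 8. Gpr37l1 and S1pr1 were not separated beyond their spread (higher in 6 of 8 libraries), and with the longest transcript Ntsr2 stood above both in 8 of 8. Below them came the GABA-B subunit Gabbr1 (10.24), the adenosine receptor Adora1 (9.64), the endothelin receptor Ednrb (9.33) and the glutamate receptor Grm3 (9.12). Grm3 exceeded Grm5 (6.36) by 6.77-fold in 8 of 8 libraries. The adrenergic receptors, which sense noradrenaline, stood at 6.72 (Adrb1), 5.64 (Adra1b) and 3.89 (Adra1a) per kb, and the purine receptor P2ry1 was at 3.39.

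Ionotropic receptors had no member in the highest 10% per kb. The highest, the AMPA receptor subunit Gria1 at 8.04 and the NMDA subunit Grin2c at 7.93, were not separated beyond their spread (higher in 5 of 8 libraries). Grin2c had log2 levels of 9.36, 10.30 and 11.37, a wider range than the 10.46, 10.61 and 10.88 of Gria1. The GABA-A subunits Gabra2 and Gabrg1 stood at 7.86 and 7.08. Among growth factor receptors, Fgfr3 (9.72) and Ntrk2 (9.51) led, and only Fgfr3 reached the highest 10%, whose edge is 9.71. Fgfr3 stood 4.24 times above Fgfr1 in 8 of 8 libraries. The interleukin receptor Il6ra was at 0.47 per kb while its partner Il6st was at 5.91.

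Among nuclear hormone receptors, the thyroid receptor Thra (10.85) and the clock receptor Nr1d1 (10.83) led and were not separated beyond their spread with exon length (Thra higher in 4 of 8 libraries), but with the longest transcript Thra was higher in 8 of 8 (1.68-fold). The glucocorticoid receptor Nr3c1 had log2 levels of 11.38, 11.75 and 11.92 and 8.77 per kb, 6.39 times above the mineralocorticoid receptor Nr3c2. Receptors for progesterone and estrogen lay below the median gene per kb (6.30). Pgr, the progesterone receptor, had log2 levels of 8.18, 8.66 and 9.03 (5.53 per kb). Esr1, estrogen receptor alpha, had 5.59, 6.25 and 6.9998 and 2.49 per kb, 8.19 times below Pgr in 8 of 8 libraries (4.71 times with the longest transcript). Esr2, estrogen receptor beta, was not past the filter, with log2 levels of -0.26, 1.12 and 4.22.

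Of 22 secreted lipid, protease and hormone genes past the filter, 14 lay there, led by Cst3 and Apoe. The peptide processing enzyme Cpe stood at 14.77 per kb, the chemokine Cxcl14 at 13.15 and the chaperone Clu at 13.09. Agt, the angiotensin precursor, was at 9.31 and the alarmin Il33 at 9.66. Of 22 synaptic and matrix genes, 6 lay in the highest 10%, with Sparcl1 at 13.63 and the growth factor Ptn at 13.05 per kb. Sparcl1, which promotes synapse formation, had log2 levels of 14.62, 15.10 and 15.87. The synapse-inducing thrombospondin genes Thbs1 and Thbs2 were at 0.34 and 2.27 and the matrix gene Tnc at 3.03. The list of growth factors, in which Ptn was not counted, was lower, with a median of 5.89. Of its 25 genes 1, Vegfb, lay in the highest 10% per kb. Vegfb stood at 11.54 per kb, 14.9 times above Vegfa, and Fgf1 at 9.61. The neurotrophic factor gene Gdnf did not pass the filter, with log2 levels of -0.41, 1.10 and 2.37.

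Energy and lipid metabolism was broadly represented. All 27 genes of that list stood above the median gene per kb and 16 lay in the highest 10%. Aldoc stood 2.48 times above Aldoa, and Ldhb, the lactate dehydrogenase subunit that favours pyruvate, 8.49 times above Ldha, each in 8 of 8 libraries. With the longest transcript these folds were 1.55 and 5.61, again in 8 of 8. The fatty acid binding proteins Fabp7 and Fabp5 stood at 13.49 and 11.84 and the serine synthesis genes Phgdh and Psat1 at 11.82 and 10.40. Glycogen phosphorylases Pygb and Pygm were at 10.63 and 8.71. In the redox list 13 of 20 genes lay in the highest 10%, including Prdx6, a peroxide-removing enzyme, with log2 levels of 16.34, 16.46 and 16.55. Transcription factors had 9 of 22 in the highest 10%, led by the inhibitors of differentiation Id2 (14.58) and Id3 (13.61), with the astrocyte factor Sox9 at 11.65. Reactive astrocyte genes Serpina3n and C4b were at 6.24 and 5.47 per kb, and the complement gene C3 did not pass the filter, with log2 levels of 0.05, 1.78 and 5.23.

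**Figure D3:**
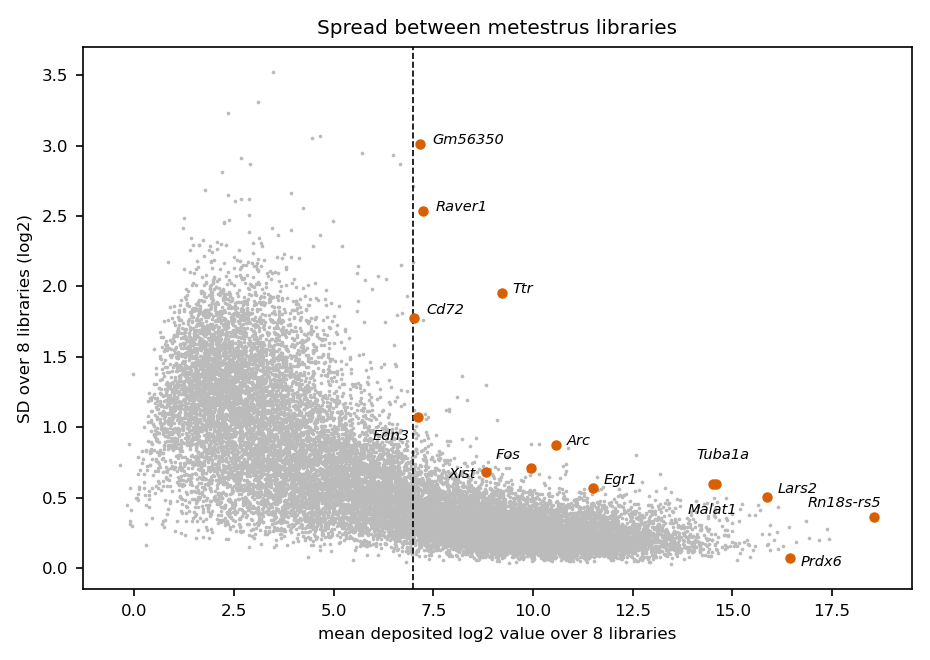
SD over the 8 metestrus libraries (y axis) against the mean deposited log2 value (x axis), 1 grey point per gene, with a dashed line at a mean of 7. Labelled genes are orange, including Prdx6 near the lower edge and Gm56350, Raver1 and Ttr far above the other genes of their level.

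The spread between libraries was small for well-read genes. The median SD was 0.343 (log2) over the genes past the filter, 0.260 for the 11432 with a mean of at least 7 and 0.722 below it. Ndufb9, a complex I subunit, had the smallest SD, 0.025, with values from 13.44 to 13.50. Ttr, the transthyretin gene that marks choroid plexus, ranged from 5.84 in library 5 to 12.95 in library 4 (SD 1.95). The 5 choroid plexus markers past the filter averaged 8.41 in library 4, 4.41 in library 5 and 6.06 over the 8 libraries, and 4 of them were highest in library 4. Over all 8 choroid plexus markers, which include Folr1, Aqp1 and Slc4a5 below the filter, these means were 7.01, 2.65 and 4.47. The hemoglobin and blood list averaged 9.10 in library 4 and 6.90 in library 5, and the mitochondrial list was also highest in library 4 and lowest in library 5. In library 4 the metallothioneins Mt1 and Mt2 were highest too, and the part of the choroid plexus and blood RNA in those values was not tested. Nuclear noncoding RNA was highest in library 4 for 8 of 9 genes, with Malat1 at log2 levels of 13.77, 14.47 and 15.54, whereas 8.35% of all genes past the filter were highest there. Library 4 was lowest for 17 of 27 energy and lipid metabolism genes and 8 of 10 glutamate enzyme genes, and for 24.5% of all genes.

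Library 8 was highest in 12 of the 23 function lists, including 19 of 22 members of the lipid, protease and hormone list, 15 of 22 of the synaptic and matrix list, and 12 of 20 astrocyte markers. Of all genes past the filter, 20.9% were highest in library 8. Library 6 was lowest in 7 of the 23 function lists and for 23.7% of all genes. The astrocyte list averaged 13.99 in library 8, 13.44 in library 6 and 13.61 ± 0.20 over the 8 (SD). Immediate early genes, which neurons and glia induce within minutes of stimulation, were lowest in library 8, where 6 of 13 members had their lowest value, and next lowest in library 6, which held the lowest value of 5 others. Among all genes past the filter, 8.4% had their lowest value in library 8 and 23.7% in library 6. The list averaged 8.72 in library 8, 9.00 in library 6 and 10.14 in library 4. Egr1 read 11.32, 11.48, 11.80, 12.26, 11.97, 11.24, 11.52 and 10.38 in libraries 1 to 8, and Fos 9.66, 9.94, 10.51, 10.62, 10.91, 9.29, 9.91 and 8.80. Arc ranged from 9.05 in library 8 to 11.91 in library 4. Egr1, Fos and Arc were all lowest in library 8 and highest in library 4 or 5, and these 3 libraries belong to the same batch.

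**Figure D4:**
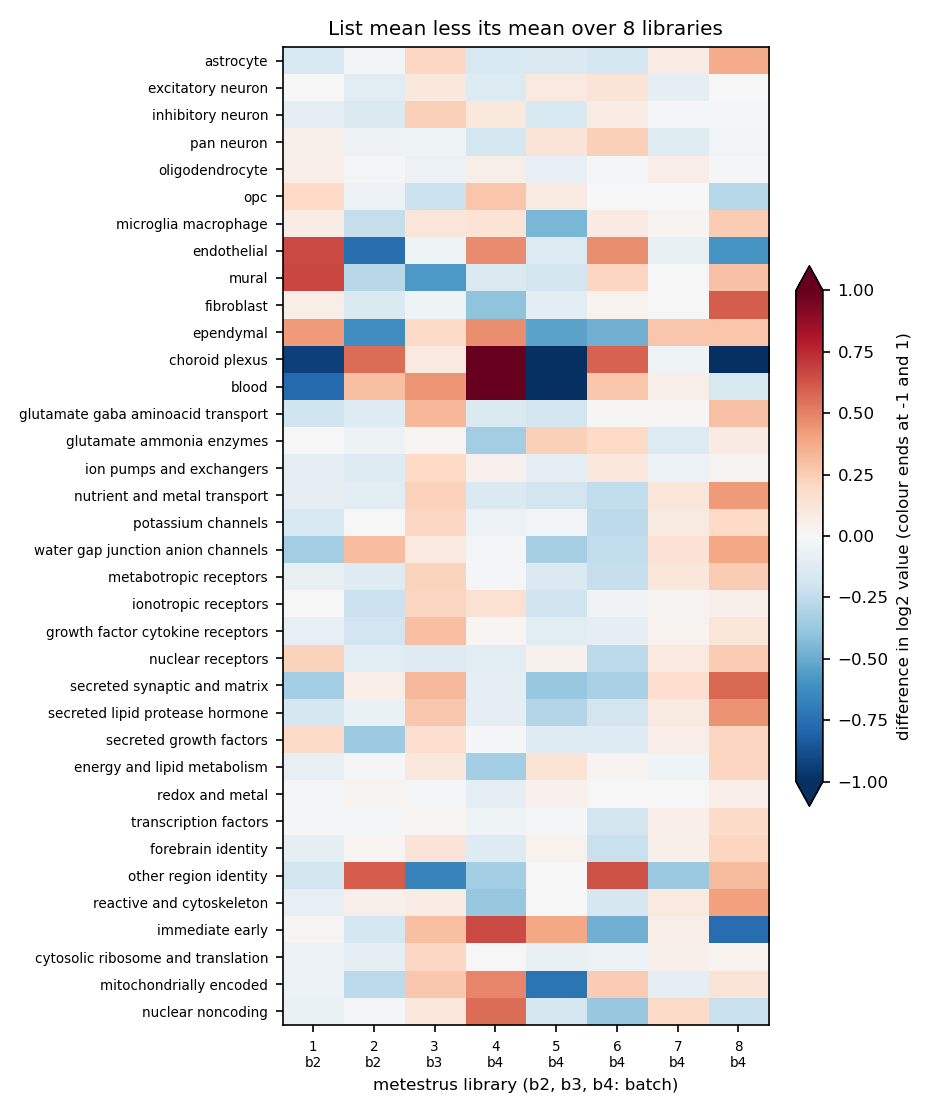
Mean of each gene list in each metestrus library less its mean over the 8 (colour, difference in log2 value, ending at -1 and 1), with libraries in columns and their batch below them, over all members in the file. Library 8 is highest in 12 of 23 function lists (red) and blue for immediate early genes, and choroid plexus and blood run from red in library 4 to blue in library 5.

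Agreement between batches was tested with limma, comparing the 5 libraries of batch 4 with the 3 of batches 2 and 3. It called 0 of 18338 genes (0%) at a Benjamini-Hochberg adjusted p of 0.05, and 0 had an unadjusted p below 0.05, where the smallest was 0.444. The difference between batch means was 0.0379 (log2) at the median in absolute size, and 97.7% of genes lay within 0.25. Libraries 1 and 2, of the same batch, agreed within 0.25 for 37.3% of these genes, and for 58.9% once their differences were multiplied by 0.516, the factor by which averaging 3 and 5 libraries narrows a difference. The contrast between batch groups held 0.494% of the variation of gene-centred values, against 14.3% if variation were spread evenly over the 7 dimensions of 8 libraries. The test therefore says nothing of how alike the batches were before deposit. SDs over the 8 libraries describe the deposited values, in which this contrast is nearly absent. With the 7 dimensions taken as principal components, components 6 and 7 held only 1.24% and 0.103% of the variation. The SDs over 8 libraries therefore rest on fewer than 7 full dimensions of variation. Raver1, an RNA-binding protein gene, read 2.07, 10.19 and 10.21 in libraries 1 to 3 and 7.20, 6.45, 7.34, 7.17 and 7.35 in libraries 4 to 8, so the batch means lay within 0.389 of each other while library 1 stood far below libraries 2 and 3. Gm56350 read 10.32, 9.53 and 0.64 in libraries 1 to 3 and 5.38 to 8.11 in batch 4. Between libraries Pearson's r over genes, which are not independent, was 0.909 to 0.948 within batches 2 and 3. It was 0.938 to 0.981 within batch 4 and 0.945 to 0.973 between batch 4 and batches 2 and 3. These r values come from the same deposited values, so they too say nothing of how alike the batches were before deposit. Leaving out library 1 gave 1 called gene, Raver1, with means of 10.20 in libraries 2 and 3 and 7.10 in batch 4 (limma adjusted p = 0.00419). In the same fit 310 genes (1.69%) had an unadjusted p below 0.05. Since the deposited means of the batch groups are nearly equal, leaving out a library far from the others moves them apart by construction. The call of Raver1 is therefore no evidence of a batch difference. For the same reason the 1.69% cannot be set against the 5% that chance gives.

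**Figure D5:**
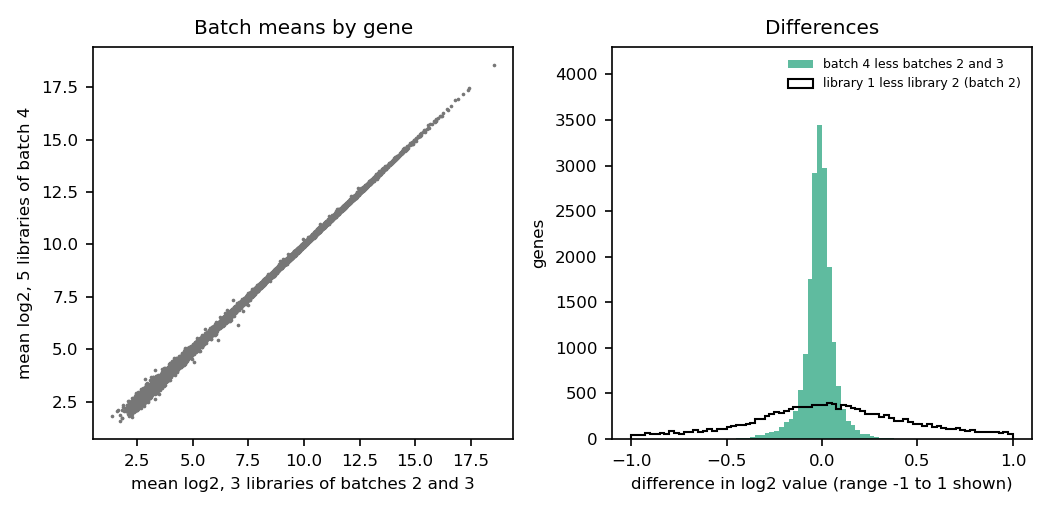
Left, mean deposited log2 value of each gene in the 3 libraries of batches 2 and 3 (x axis) against the 5 of batch 4 (y axis). Right, number of genes (y axis) by difference in log2 value, for batch 4 less batches 2 and 3 (filled) and for library 1 less library 2 of batch 2 (line), where 97.7% and 37.3% of genes lie within 0.25. The filled distribution is of means of several libraries, which averaging alone narrows.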

How the data were processed

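The table of 21749 genes holds log2 values, deposited by the authors for 19 libraries. STAR, Salmon and edgeR are named in the submitters' processing notes beside the build GRCm39, without versions or order, and for the authors' scaling, pseudocount and filters the sources used here give nothing. The table's label carries the letters SVA with no further description. The log base was read from the values, since powers of 2 of the deposited log2 values sum to a similar total in each library. Read depth is unknown, so counting intervals were not computed.

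The 8 metestrus libraries were taken by their treatment label. Genes past the filter had at least 10 before the logarithm in at least 3 libraries. Exon lengths were matched by gene ID for 19269 genes (88.6%) from GENCODE M21, which is on GRCm38, so no coordinates of genes are given. The longest transcript was an added alternative, chosen after the data were seen. Families were taken by symbol. Levels carry no test. A difference between genes with the same sign in all 8 libraries was called beyond the spread. Batches were compared with limma 3.58.1 in R 4.3.3 (trend, robust prior, two-sided, Benjamini-Hochberg adjustment), checked on simulated data. Genes named were members of the lists, the highest or lowest by level or SD, or singled out after their values were seen (Raver1 and Gm56350 are among the largest SDs). The members and lists were chosen with earlier results of these data known.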

Additional observations from a re-analysis of the deposited data

Results flagged for a closer look

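In 6 of 179 sets of 8 values examined (36 list means and 143 named genes), 1 library lay far from the other 7, and chance alone gives this for about 1 in 20 sets. The list of fibroblast markers averaged 6.38 in library 8, its highest value, over all 8 members, which include Aspn below the filter. Over the 7 members past the filter the means were 7.01 in library 8, 6.49 in library 3 and 5.997 in library 4, the lowest. Whether library 8 lay far from the others over those 7 was not tested. The GABA transporter gene Slc6a11 also had its highest log2 level, 12.26, in library 8. In library 4 the calcium pump gene Atp2b1 had its highest log2 level, 12.73, and the glycogen phosphorylase gene Pygb its lowest, 12.21. In library 6 the forebrain factor gene Emx2 had its lowest, 9.18, and the growth factor gene Vegfb its lowest, 11.55. Raver1 and Gm56350 were named for their large SD and were not examined in this way.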

How the results depend on the processing

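Of 186 alternatives to the reported values, 182 stayed within the limits set for a change and 4 moved. Leaving out each library in turn gave 0 to 1 genes called between batches, a median SD of 0.318 to 0.358, and 97 to 99 genes shared with the 100 highest per kb; the 1 gene called without library 1 was Raver1. Without a filter on low values the median SD was 0.399 in place of 0.343. The 100 highest genes held 26.8% of the summed value per kb of exon length in place of 19.9% as deposited, and 55 genes were shared between the 2 sets of 100. With the longest transcript 70 were shared. All 143 alternatives to the means of the 13 cell type lists stayed within their SD over libraries, but they could hardly have moved. Centring libraries on their medians left each list mean unchanged, and leaving out 1 library cannot move a mean by its SD. The deposited means of the batch groups are nearly equal, so either group alone gave nearly the same list mean. These 143 are most of the 182, and they say nothing of how stable the list means are. Subtracting each library's median shifted a library by at most 0.12 (log2). The number of libraries limits the precision, and the read depth is unknown. No paired analysis was possible because 1 group was described and its replicate numbers are only names.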
